A study of Mus musculus with 20 samples.

Results

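The hippocampus of mice lacking Helios was compared with that of wild type mice in 8 RNA sequencing libraries, 4 labelled wild type (replicates 1 to 4) and 4 labelled Helios -/-, a full knockout (replicates 7 to 10). They were chosen from a series of 20 libraries of hippocampus and striatum by the code that each library carries. The first number of the code was 6 in every wild type library used and 8 in every knockout library, so genotype and whatever else that number records cannot be told apart. The other 2 hippocampal libraries, code 7_1 (labelled wild type replicate 6) and code 7_6 (labelled knockout replicate 5), were left out of the groups because their level of Ikzf2, the gene encoding Helios, goes against their label, and they are shown beside the groups below. The striatal libraries of these codes carry the opposite labels, knockout for code 7_1 and wild type for code 7_6. All mice were given the strain C57BL/6, and the labels state no treatment, age or sex, and no part of the gene that the knockout allele removes. Knockout replicate 10 carries the tissue tag striatum but is titled hippocampus. In that library 13 measured markers of striatal projection neurons averaged 2.42 on the scale of log2(RPKM + 1), within the 2.2 to 2.49 of the 8 hippocampal libraries and below the 4.9 to 5.42 of 8 striatal libraries. RPKM, the deposited unit, counts reads relative to the length of the gene and the size of the library.

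Helios is a zinc finger transcription factor of the Ikaros family, whose members bind DNA as dimers and recruit chromatin remodelling complexes such as NuRD. It is best known from regulatory T cells and hair cells and is also present in the developing forebrain. The hippocampus holds the excitatory neurons of the dentate gyrus and the CA fields, interneurons, glia, vessels and, along its borders, ependyma, choroid plexus and meninges, all of which contribute RNA to a bulk sample.

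Ikzf2 lies on chromosome 1 at 69531207 to 69687351 (GRCm38). Its level in the wild type libraries was 1.32, 1.58, 1.33 and 1.61 RPKM, and in the knockout libraries 0.785, 0.353, 0.617 and 0.55 RPKM, in the order of replicates 1 to 4 and 7 to 10. The groups did not overlap, and the means were 1.46 ± 0.155 and 0.576 ± 0.178 RPKM (SD, n = 4 each). Code 7_1 had 0.782 RPKM, at the top of the knockout range, and code 7_6 had 1.43 RPKM, inside the wild type range. These values chose the libraries and are given as a description, with no test. In striatum, where the labels of codes 7_1 and 7_6 are reversed, these codes had 1.11 and 2.31 RPKM of Ikzf2. Reads over Ikzf2 were present in all 4 knockout libraries.

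The other Ikaros genes were described for comparison. Ikzf5, which encodes Pegasus, was at 10.5 to 11.1 RPKM in wild type and at 10.45, 4.34, 10.2 and 10.2 RPKM in knockout replicates 7 to 10. Its lower mean rested on knockout replicate 8, since the log2 difference was -0.33 with that library and -0.06 without it. Ikzf4, which encodes Eos, was at 6.23 to 6.78 RPKM in wild type and at 2.1 RPKM in knockout replicate 8, against 5.63 to 6.69 RPKM in the other 3 knockout libraries. Ikzf1 was between 0.273 and 0.653 RPKM in these 8 libraries and below the level required for testing, and Ikzf3 was listed at 0 in 7 of the 8.

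Knockout replicate 8 stood apart from every other library by gene length. Genes with under 1000 exonic bases were at a median of 0.83 above the other 7 libraries on the log2 scale, and genes with over 5000 bases at -0.73, while in the remaining libraries these medians lay between -0.10 and 0.08. Knockout replicate 7 stood apart in another way: 22.4% of its recovered reads fell on 1 feature that has no symbol in the annotation used, against 0.21% to 6.17% in the other 7. That feature had 2 unsure decimal marks in the 8 libraries, so these shares are uncertain. The mitochondrial ribosomal RNA genes mt-Rnr1 and mt-Rnr2 had 0 unsure marks. They were at 5986 and 6169 RPKM in knockout replicate 7, against 468 to 823 and 571 to 864 RPKM in the other 7. Knockout replicate 7 stays in the comparison when knockout replicate 8 is left out. Recovered reads, the whole reads that the RPKM values imply, came to 16711340 in knockout replicate 8 and to between 22590453 and 29020116 in the other 7 libraries. Because of the length bias, the main counts and most gene lists are given over all 8 libraries and again without knockout replicate 8, in which case 4 libraries face 3. Some lists are given only without it.

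**Figure D1:**
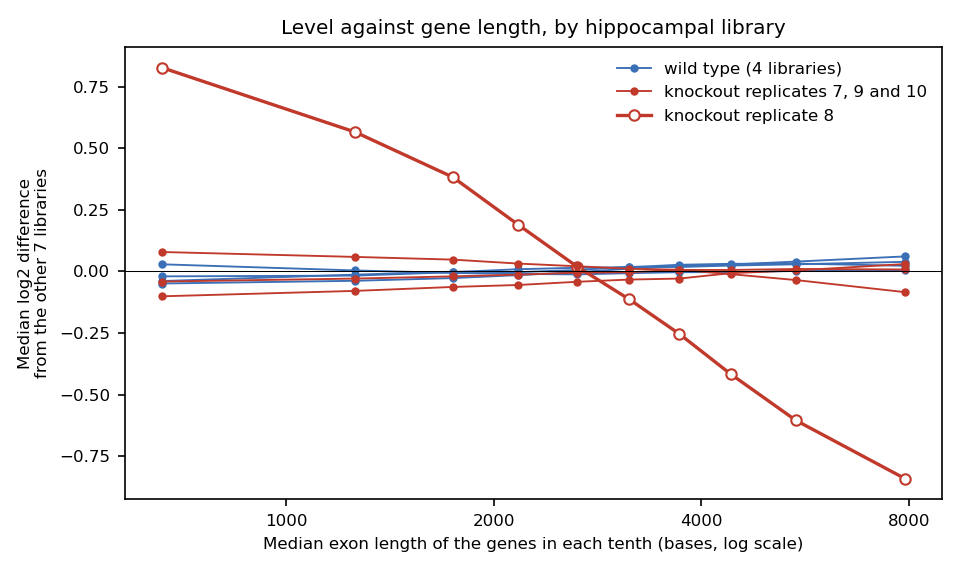
Median log2 difference of each hippocampal library from the other 7 (vertical axis) for genes split into 10 equal bins by exonic length (horizontal axis, log scale). The line of knockout replicate 8 falls from the shortest to the longest genes, and the other 7 lines stay near 0.

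Across the transcriptome, no gene passed over all 8 libraries. Of 14989 genes that reached 0.5 RPKM in 4 or more libraries, limma called 0 at an adjusted p below 0.05 (0% of those tested), and 548 (3.66%) had an unadjusted p below 0.05. The smallest limma adjusted p was 0.394, for Scarna9, which reached 0.5 RPKM only in wild type libraries. The ranges of the groups did not overlap for 1094 genes (7.3%), 736 lower (4.91%) and 358 higher (2.39%) in knockout. Without knockout replicate 8, limma called 1 of 14906 genes (0.00671%), the receptor gene Gabra2, and 1388 genes (9.31%) had an unadjusted p below 0.05, 870 lower (5.84%) and 518 higher (3.48%). The groups then did not overlap for 1508 genes (10.1%), 976 lower (6.51%) and 532 higher (3.55%). By direction alone, 54% of all genes had a lower mean in knockout and 46% a higher mean without knockout replicate 8. Over all 8 libraries 47.5% had a higher mean. The direction counts of the gene lists below are to be read beside these shares. When each library was weighted by how closely it followed the fit (limma array weights), knockout replicate 8 received a weight of 0.034 and the others 1.2 to 3.18. With these weights 22 genes (0.147%) were called, 14 lower and 8 higher. One of the 22 was Ikzf2, which the choice of libraries had used. Scarna9, Rnu1b6 and a feature without a symbol, also among the 22, reached 0.5 RPKM in the libraries of a single group only. They entered the test through the group where they were high, so their calls are not a result. In the striatum of the same codes, limma called 0 of 14855 genes (0%), with 691 (4.65%) at an unadjusted p below 0.05, and the groups did not overlap for 485 genes (3.37%). In an exact two-sided permutation test of single genes, the smallest p that the 70 splits of 4 against 4 allow is 0.0286, and 0 of 132 named genes, Ikzf2 left out, passed when adjusted over the 132. Many of these genes were named for their small p, so the count that reached the smallest p is not a result. Since the labels name no animals, these p-values measure the spread between libraries, which may be technical.

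The gene called without knockout replicate 8, Gabra2, encodes the alpha 2 subunit of the GABA-A receptor, a chloride channel opened by the transmitter GABA. It lies on chromosome 5 at 70958392 to 71095849 (GRCm38). Wild type libraries had 50.9, 51.7, 52.9 and 50.1 RPKM, and knockout replicates 7, 9 and 10 had 36.2, 32.5 and 33 RPKM. The 3 knockout libraries all lay below the 4 wild type libraries, and the spread within each group was small, at 51.4 ± 1.21 RPKM (SD, n = 4) against 33.9 ± 1.97 RPKM (SD, n = 3). The value of knockout replicate 8 had an unsure decimal mark and was left out of both fits, so the difference was -0.59 on the log2 scale in each. Its SE was 0.081 with a limma adjusted p of 0.492 over all 8 libraries, and 0.048 with 0.00409 without knockout replicate 8. The limma adjusted p was 0.00172 with library weights. Codes 7_1 and 7_6 had 53.1 and 54.9 RPKM, so both lay with wild type and the order of Gabra2 did not follow that of Ikzf2. In striatum Gabra2 was at 8.46, 11.4, 15.9 and 15.4 RPKM in wild type and at 7.7, 7.25, 8.68 and 6.8 RPKM in knockout, with overlap between the groups (-0.64 on the log2 scale, limma unadjusted p = 0.00515).

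GABA-A receptor channels are built from subunits of several families. Of 12 subunit genes tested, Gabra2 included, 10 were lower and 2 higher over all 8 libraries (0 called), and 6 were lower and 6 higher without knockout replicate 8 (1 called, Gabra2), with a median of -0.009 against -0.008 over all genes on the log2 scale. Gabrb2, a beta subunit gene, had 12.5 to 20.7 RPKM in wild type and 8.87 to 15.4 RPKM in knockout. Gabra5, the alpha subunit gene typical of hippocampal pyramidal neurons, had 28.1 to 35.5 RPKM and 33.5 to 36.3 RPKM. Both ranges overlapped. Of 17 glutamate receptor genes, 13 were lower over all 8 libraries and 7 without knockout replicate 8, and 0 were called in either.

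**Figure D2:**
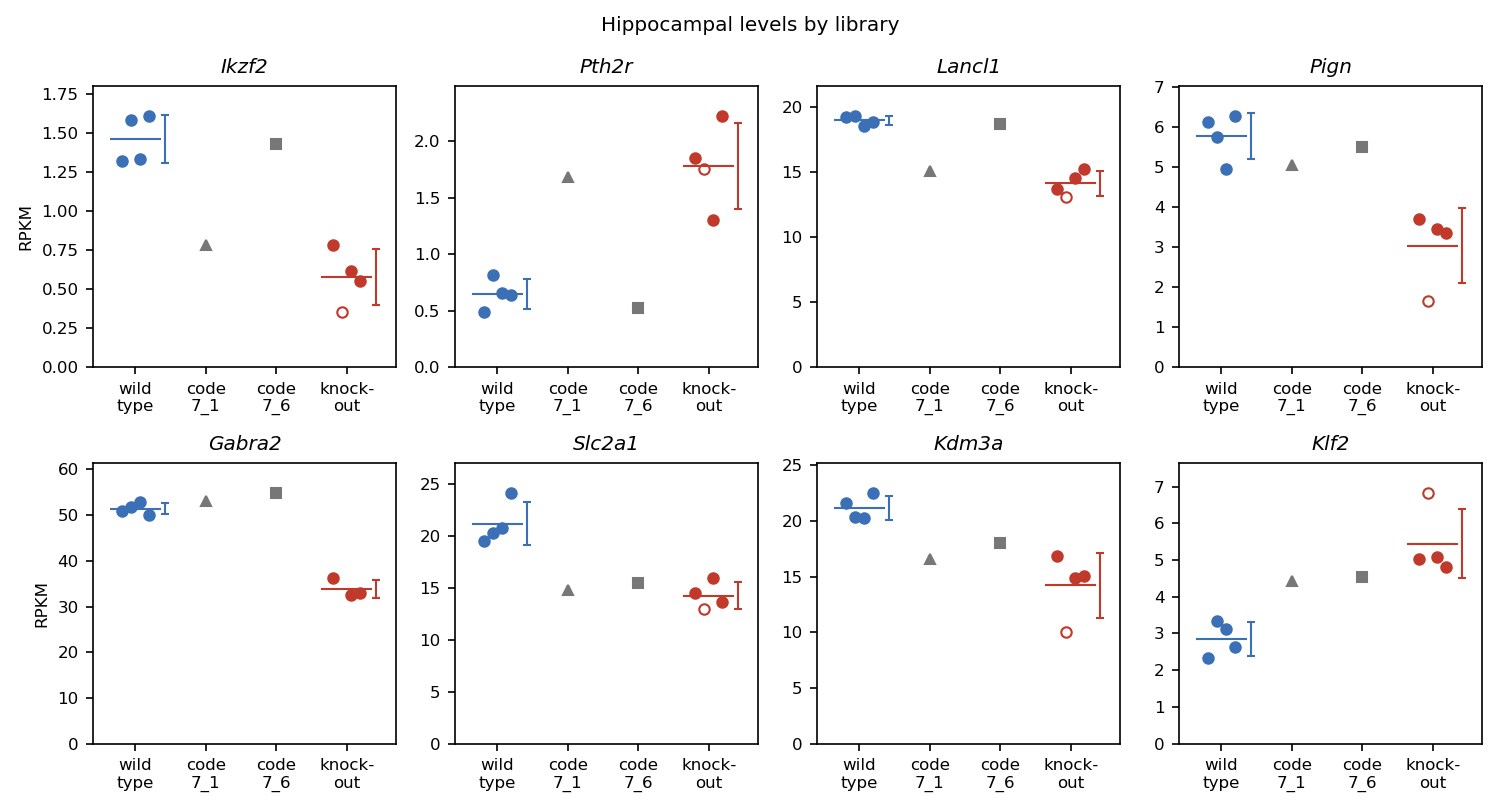
RPKM of 8 genes in each hippocampal library, with the group mean (horizontal line) and its SD (bar at the side), and codes 7_1 and 7_6 between the groups. Open circles mark knockout replicate 8, whose value is not shown for Gabra2. Code 7_1 lies with knockout for Ikzf2, Pth2r and Lancl1, both codes lie with wild type for Gabra2 and Pign, and both lie with knockout for Slc2a1 and Klf2.

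Genes of both directions with small p-values lay near Ikzf2 on chromosome 1. Without knockout replicate 8, 10 of 351 genes tested within 40 Mb of Ikzf2 (2.849%, Ikzf2 included) had an unadjusted p below 0.001, against 0 of 472 on the rest of chromosome 1 and 49 of 14066 (0.348%) on the other chromosomes. Over all 14906 genes tested the share was 0.403%. No test was made of the difference between these shares, and neighbouring genes are not independent. Over all 8 libraries 6 of 355 had such a p, against 17 of all 14989 genes tested, 11 of them on other chromosomes. In striatum 6 of these neighbours had such a p, against 20 of all genes tested in hippocampus, 14 of them on other chromosomes. Of the 10, 3 were higher and 7 lower in knockout. Ikzf2, whose level chose the libraries, is counted in the 10, in both counts of 6 and among the 7 lower, and its own p is not a result.

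Pth2r encodes a receptor of the parathyroid hormone family that responds to the neuropeptide TIP39, and it lies 4.14 Mb from Ikzf2 (65280282 to 65389625). It was at 0.487, 0.813, 0.656 and 0.64 RPKM in wild type and at 1.85, 1.75, 1.3 and 2.22 RPKM in knockout. All knockout libraries were higher than all wild type libraries, with a difference of 0.75 ± 0.11 (SE) on the log2 scale (limma adjusted p = 0.492, and 0.0248 with library weights). Code 7_1 had 1.68 RPKM and code 7_6 had 0.523 RPKM, the same order as for Ikzf2 reversed in sign. In striatum the groups overlapped, at 1.02 ± 0.41 and 0.799 ± 0.356 RPKM (SD, n = 4 each). The difference between tissues was 0.91 ± 0.22 (SE) on the log2 scale, with a limma adjusted p of 0.781.

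Lancl1, which encodes a glutathione-binding protein, lies 2.49 Mb from Ikzf2 (67000517 to 67038891). It was at 19.2, 19.3, 18.5 and 18.9 RPKM in wild type and at 13.7, 13.1, 14.6 and 15.3 RPKM in knockout. The groups did not overlap, and the difference was -0.40 ± 0.07 (SE) on the log2 scale (limma adjusted p = 0.614, and 0.02 with library weights). Codes 7_1 and 7_6 had 15.1 and 18.7 RPKM, the first beside knockout and the second beside wild type. In striatum Lancl1 differed by -0.31 on the log2 scale, with no overlap.

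Further out, Aox4, an aldehyde oxidase gene 11.26 Mb away, was at 4.42 to 4.55 RPKM in wild type and at 5.8 to 6.48 RPKM in knockout. Pign, a gene of glycosylphosphatidylinositol anchor synthesis 35.83 Mb away, was at 4.96 to 6.27 RPKM in wild type and at 3.7, 1.65, 3.45 and 3.36 RPKM in knockout. Asb1, encoding an adaptor of ubiquitin ligases and 21.85 Mb away, was at 12.95 to 16.8 RPKM and at 9.92, 5.49, 9.27 and 9.18 RPKM. These 3 genes did not overlap between groups, and each was called with library weights (limma adjusted p = 0.02, 0.0261 and 0.0228). Over all 8 libraries the limma adjusted p was 0.614, 0.69 and 0.69, and without knockout replicate 8 it was 0.0539 for each. D2hgdh, a hydroxyglutarate dehydrogenase gene 24.14 Mb away, was at 4.21 to 6.38 RPKM in wild type and at 2.2 to 2.53 RPKM in the 3 knockout libraries used, since knockout replicate 8 had an unsure mark (limma adjusted p = 0.492). Arl4c and Dnpep were lower and Bok higher in knockout replicates 7, 9 and 10, without overlap. Knockout replicate 8 lay on the wild type side for Dnpep, at 25.8 RPKM against 15.6 to 17.1 RPKM in the other 3.

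The left-out codes placed these neighbours in 2 ways. For Aox4, Pth2r, Lancl1 and Dnpep, all within 12 Mb of Ikzf2, and for Bok, 24 Mb away, code 7_1 was nearer the knockout mean and code 7_6 nearer the wild type mean. For Aox4, however, code 7_6 had 2.56 RPKM, well below every wild type library (4.42 to 4.55 RPKM), while code 7_1 had 6.49 RPKM. For Asb1, D2hgdh and Pign, at 21.85 to 35.83 Mb, both codes were nearer the wild type mean. Arl4c lay about midway, with both codes nearer wild type on the log2(RPKM + 1) scale and nearer knockout in RPKM. Bok and D2hgdh, at 24 and 24.14 Mb, differed in this although they lie close together. Over all genes tested, 18% showed the first pattern and 28.1% the second. The means left out knockout replicate 8, and distances were taken on the log2(RPKM + 1) scale.

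**Figure D3:**
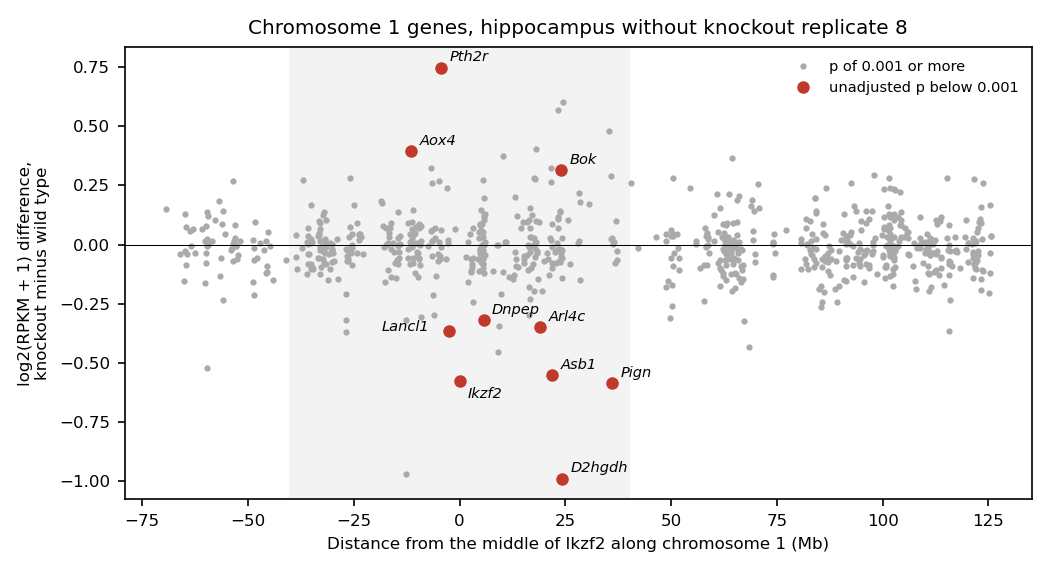
Difference of knockout from wild type hippocampus without knockout replicate 8, on the log2(RPKM + 1) scale, for genes of chromosome 1 against their distance from Ikzf2 in Mb. The 10 genes with an unadjusted p below 0.001, named in the plot, all lie in the shaded 40 Mb on either side, 3 above 0 and 7 below. Ikzf2, whose level chose the libraries, is among the 7.

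Most genes of the hypoxia response and of glycolysis had a lower mean in knockout. Cells short of oxygen stabilise hypoxia-inducible factor, which raises glucose uptake, glycolysis and vessel growth. Its targets carry the core motif ACGTG or GCGTG in their promoters. Without knockout replicate 8, 24 of 26 tested genes of the list were lower and 2 higher, where 54% of all genes were lower. The median was -0.23 against -0.008 over all genes on the log2 scale. Of the 26, 19 were lower and 0 higher at an unadjusted p below 0.05, where 5.84% of all genes were lower. In addition, 15 lay wholly below wild type, where 6.51% of all genes did. None of the 26 passed without knockout replicate 8 (smallest limma adjusted p = 0.0539), and 3 passed with library weights. Over all 8 libraries 22 were lower and 4 higher, 10 were lower at an unadjusted p below 0.05 against 1.67% of all genes, and the median was -0.17. The list was drawn up with earlier results of these data known, so its direction is not independent evidence.

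The promoters of 3 of the genes with the clearest separation are shown with 1 member that did not separate, to let the motif be read beside the values. Each is the 250 bases before the transcription start in RefSeq (GRCm38.p6), 5′ to 3′ on the strand of the gene, with ACGTG or GCGTG on either strand in capitals.
Slc2a1, chr4:119108495-119108744, plus strand: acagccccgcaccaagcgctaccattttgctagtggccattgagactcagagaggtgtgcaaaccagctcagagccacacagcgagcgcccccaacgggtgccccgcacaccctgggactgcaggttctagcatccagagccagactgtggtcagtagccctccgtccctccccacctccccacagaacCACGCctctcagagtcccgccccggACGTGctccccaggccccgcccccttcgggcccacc
Narf, chr11:121236986-121237235, plus strand: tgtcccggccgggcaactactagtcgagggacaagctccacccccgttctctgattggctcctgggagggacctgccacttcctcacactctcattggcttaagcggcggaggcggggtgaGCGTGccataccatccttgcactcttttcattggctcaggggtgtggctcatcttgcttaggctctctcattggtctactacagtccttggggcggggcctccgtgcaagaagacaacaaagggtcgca
Ddit4, chr10:59951771-59952020, minus strand: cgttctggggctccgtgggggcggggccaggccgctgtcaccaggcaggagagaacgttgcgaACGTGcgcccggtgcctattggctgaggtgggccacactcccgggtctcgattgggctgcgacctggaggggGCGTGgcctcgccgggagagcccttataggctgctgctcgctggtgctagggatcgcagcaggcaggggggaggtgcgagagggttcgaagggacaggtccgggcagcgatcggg
Egln1, chr8:124949255-124949504, minus strand: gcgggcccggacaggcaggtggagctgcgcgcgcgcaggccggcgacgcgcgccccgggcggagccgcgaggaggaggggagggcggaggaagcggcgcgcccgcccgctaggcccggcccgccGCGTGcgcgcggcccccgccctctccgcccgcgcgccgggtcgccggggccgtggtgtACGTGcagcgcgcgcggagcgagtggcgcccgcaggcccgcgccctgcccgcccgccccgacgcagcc
Slc2a1 and Ddit4 each held 2 matches and Narf 1, and Egln1, which encodes the oxygen-sensing prolyl hydroxylase that marks the factor for destruction, held 2. Among list genes that were lower at an unadjusted p below 0.05, 23 of 30 promoter windows held a match (76.7%), and among the other members 7 of 8 did (87.5%). Over all 32851 windows the share was 38.6%. Counted by gene, 18 of 18 lower members and 7 of 7 other members with a promoter in the table had at least 1 match, against 61% of the 11091 genes tested in hippocampus that have one. A match is a string of letters and not a binding site, and it did not separate members that were lower from those that were not.

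Slc2a1 encodes GLUT1, the glucose transporter of the blood-brain barrier and of glia. It was at 19.6, 20.3, 20.8 and 24.2 RPKM in wild type and at 14.5, 12.9, 15.9 and 13.7 RPKM in knockout. Every knockout library lay below every wild type library. The difference was -0.54 ± 0.095 (SE) on the log2 scale over all 8 libraries and -0.50 ± 0.075 (SE) without knockout replicate 8, with limma adjusted p-values of 0.614 and 0.0618, and 0.02 with library weights. In striatum it was at 15.3 to 20.9 RPKM in wild type and at 11.7 to 12.5 RPKM in knockout, again without overlap.

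Narf, a hypoxia-responsive gene named for its product's binding to prelamin, was at 27.3, 28, 26.7 and 29.7 RPKM in wild type and at 21.8, 18.7, 22.1 and 21.6 RPKM in knockout. The groups did not overlap, and the difference was -0.40 ± 0.08 (SE) on the log2 scale (limma adjusted p = 0.69, and 0.0217 with library weights). Kdm3a, a histone demethylase induced by hypoxia, was at 21.6, 20.4, 20.3 and 22.6 RPKM and at 16.9, 10, 14.9 and 15.1 RPKM. Its knockout values were all lower, that of knockout replicate 8 most so (limma adjusted p = 0.69, and 0.02 with library weights).

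Ddit4, a stress-induced inhibitor of mTOR, was at 66.7 to 78.6 RPKM in wild type and at 40 to 56.4 RPKM in knockout. Stc2, which encodes the secreted glycoprotein stanniocalcin 2, was at 1.98 to 2.87 RPKM and at 1.13 to 1.68 RPKM. Vegfa, the main angiogenic growth factor, was at 32.9 to 33.9 RPKM and at 18.9 to 29.5 RPKM. None of these 3 overlapped between groups, and none passed limma (adjusted p = 0.69 each). Members with little separation were Egln1 at 32.9 to 35.2 RPKM against 29.4 to 33.35 RPKM, Hk1 at 40 to 43.6 RPKM against 32.9 to 42 RPKM, and Hk2, a hexokinase gene, at 3.27 to 5.1 RPKM against 2.26 to 4.62 RPKM. Knockout replicate 8 lay apart for some glycolytic enzymes. Gapdh was at 101 RPKM there against 49.6 to 51.8 RPKM in the other 3 knockout libraries, and Eno1 at 179 RPKM against 80 to 86.1 RPKM.

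The left-out codes did not follow Ikzf2 for this list. Mean list levels were 4.62 to 4.72 on the log2(RPKM + 1) scale in the 4 wild type libraries, 4.39, 4.55, 4.47 and 4.43 in knockout replicates 7 to 10, and 4.43 and 4.44 in codes 7_1 and 7_6. All 4 wild type libraries were therefore above both left-out libraries as well as above the knockout libraries. For 18 of the 26 members both codes were nearer the knockout mean, against 31.3% of all genes, and for 1 member both were nearer the wild type mean. Slc2a1 was at 14.8 and 15.5 RPKM in codes 7_1 and 7_6, Narf at 23.4 and 23.3 RPKM. In striatum 24 of 26 members were lower and 2 higher in knockout, with a median of -0.21 on the log2 scale and 0 called. The lower mean level of the list was thus found in all 6 hippocampal libraries with a code beginning with 7 or 8, including code 7_6 with its wild type level of Ikzf2. What sets it was not tested.

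All 4 measured globin and erythroid genes had a lower mean in knockout, with a median of -0.55 without knockout replicate 8, 0 called and 0 at an unadjusted p below 0.05. Their mean level was 5.53, 6.73, 6.74 and 6.49 in wild type, 5.67, 6.31, 5.9 and 5.83 in knockout, and 5.68 and 5.75 in the left-out codes. Wild type replicate 1 lay below all knockout libraries for blood genes but at 4.65 for the hypoxia list, above all of them. Codes 7_1 and 7_6 were both nearer knockout for all 4 blood genes, against 31.3% of all genes. In striatum all 3 blood genes tested were lower in knockout, with a median of -0.91 on the log2 scale and 0 called. The globin genes Hba-a1 and Hba-a2 are near-identical, so how reads were split between them is uncertain. The part of blood content in the hypoxia list was not tested.

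**Figure D4:**
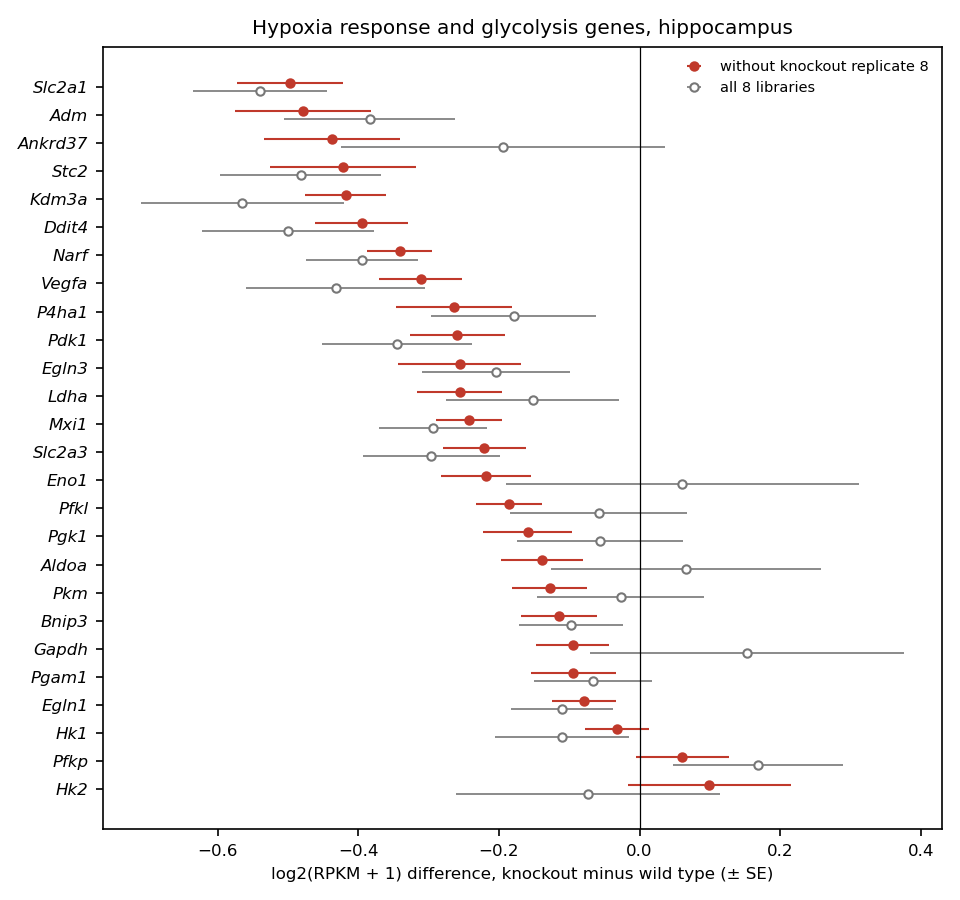
Difference of knockout from wild type hippocampus on the log2(RPKM + 1) scale, with its SE, for the 26 hypoxia response and glycolysis genes tested. Filled points leave out knockout replicate 8 and open points use all 8 libraries. Filled points lie below 0 for 24 genes, and the open points of Gapdh, Eno1, Aldoa and Pfkp lie above it.

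Several further genes separated the groups. Klf2, a transcription factor of endothelial cells that responds to blood flow, was at 2.33, 3.33, 3.11 and 2.63 RPKM in wild type and at 5.03, 6.83, 5.08 and 4.81 RPKM in knockout. Every knockout library was higher (0.74 ± 0.13, SE, on the log2 scale, limma adjusted p = 0.614, and 0.02 with library weights). Codes 7_1 and 7_6 were at 4.43 and 4.53 RPKM, both nearer knockout. Of 17 endothelial and pericyte genes, which include Klf2 and Slc2a1, 6 were higher and 11 lower and the median was -0.03 without knockout replicate 8, with 0 called. In bulk tissue fewer cells of a type and less RNA per cell cannot be told apart.

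Smad7, an inhibitor of TGF-beta signalling, was at 3.09 to 3.24 RPKM in wild type and at 1.97 to 2.4 RPKM in knockout (limma adjusted p = 0.614, and 0.0496 with library weights). Its groups did not overlap, and of the 25 TGF-beta and BMP pathway genes tested 9 were higher and 16 lower. Nedd9, a scaffold of focal adhesions, was at 10.7 to 11.6 RPKM and at 8.58, 5.41, 7.9 and 9.29 RPKM (limma adjusted p = 0.69, and 0.0468 with library weights). Vsnl1, a neuronal calcium sensor gene, was higher in knockout, at 12.8 to 14.5 RPKM against 10.1 to 10.7 RPKM (limma adjusted p = 0.69, and 0.0288 with library weights). Code 7_1 had 13.8 RPKM of Vsnl1 and code 7_6 had 10.9 RPKM, the order that Ikzf2 also gave.

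Among genes with a higher mean in knockout, Spp1, which encodes the secreted protein osteopontin, was at 6.72 to 9 RPKM in wild type and at 12.6, 14.9 and 13.2 RPKM in knockout replicates 7, 8 and 10, with replicate 9 left out for an unsure mark (limma adjusted p = 0.614, and 0.0496 with library weights). Clec3b, which encodes the plasminogen-binding protein tetranectin, was at 2.28 to 2.54 RPKM and at 3.6, 4.83, 3.63 and 3.55 RPKM, with no overlap. Nbl1, a secreted BMP antagonist gene, was at 9.34 to 10.9 RPKM and at 12.8, 23.8, 14 and 14.4 RPKM. Cpne7, a calcium-dependent membrane-binding protein gene, was at 1.72 to 2.69 RPKM and at 3.71 to 5.25 RPKM, and both left-out codes lay with knockout at 4.05 and 4.44 RPKM.

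On chromosome 13, the neighbours Tmem267 and Ccl28 were lower in knockout replicates 7, 9 and 10. Tmem267 (119488086 to 119610459) had 5.72, 7.21 and 6.96 RPKM there, against 12 RPKM in knockout replicate 8 and 9.45 to 11.5 RPKM in wild type. Ccl28, a chemokine gene (119623819 to 119654359), had 1.1, 0.705 and 0.674 RPKM in those 3, 1.27 RPKM in knockout replicate 8 and 1.58 to 1.98 RPKM in wild type. Knockout replicate 8 thus lay above wild type for Tmem267, and for Ccl28 it was the knockout library nearest to wild type. In striatum the knockout library of the same code had 10.6 RPKM of Tmem267, against 5.7 to 7.37 RPKM in the other knockout libraries. It had 2.33 RPKM of Ccl28, against 0.729 to 1.18 RPKM in the others. With library weights, where hippocampal knockout replicate 8 had a weight of 0.034, each gene was called (limma adjusted p = 0.0288 and 0.0261). Over all 8 libraries the limma adjusted p was 0.69 for each, and without knockout replicate 8 it was 0.0539 and 0.117.

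Small RNA genes with low values also appeared. Scarna9 was at 0.799 to 1.8 RPKM in wild type and was listed at 0 in all 4 knockout libraries and in code 7_1, while code 7_6 had 0.813 RPKM. Rnu1b6 was listed at 0 in 3 wild type libraries and had 0.404 RPKM in the other one, against 0.68 to 1.5 RPKM in knockout. Both are short, and reads of near-identical small RNA copies or of host genes could not be separated, so these values are uncertain. Scarna9 had the smallest p over all 8 libraries (limma adjusted p = 0.394). It reached 0.5 RPKM only in wild type libraries, and Rnu1b6 only in knockout libraries. Each entered the test only through the group where it was high, so their p-values and calls are not a result.

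Markers of hippocampal neurons went in both directions. Among CA2 and CA3 markers 8 of 10 were higher without knockout replicate 8 (median 0.08), Bok among them, and among CA1 markers 5 of 10 (median 0.01). Dentate granule cell markers had a median of 0.11 without knockout replicate 8 and of -0.13 with it, and Cajal-Retzius cell markers, from neurons that line the developing hippocampal fissure, 0.10 and -0.10. The sign of these 2 lists therefore rested on 1 library, and the same held for CA1, choroid plexus, glutamate receptor and thalamus or hypothalamus genes. Of 18 interneuron genes, 12 were higher and 6 lower without knockout replicate 8, and 10 and 8 with it. Dlx6, a homeobox gene of interneuron development, was at 0.689 to 1.06 RPKM in wild type. In knockout it was at 1.67, 1.11, 1.88 and 1.09 RPKM, without overlap. None of these genes was called.

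Of the pallial progenitor genes, 10 of 13 had a lower mean in knockout without knockout replicate 8 (median -0.14), where 54% of all genes did. With that library it was 11 of 13 (median -0.22). Neurog2, a proneural transcription factor, was at 40.8, 30.9, 32.7 and 31.2 RPKM in wild type and at 30.1, 25, 25.4 and 29.2 RPKM in knockout. The ranges did not overlap but came within 1 RPKM of each other (limma adjusted p = 0.69). Eomes, which marks intermediate progenitors, was at 34.6 to 44.5 RPKM and at 34.7, 21.2, 29 and 34.8 RPKM, with overlap. Wild type replicate 1 had the highest level of Neurog2 and Eomes. Of immature neuron genes 10 of 13 were lower without knockout replicate 8 (median -0.05) and 9 of 13 with it (median -0.16). Sox4, a transcription factor of new neurons, was at 163 to 187 RPKM in wild type. It was at 153, 116 and 140 RPKM in knockout replicates 7, 9 and 10, knockout replicate 8 being left out for an unsure mark. Replication and mitosis genes were lower in 13 of 18 without knockout replicate 8 (median -0.02), against 54% of all genes, and in 10 of 18 with it (median -0.08). Of these lists' members 0 were called.

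Immediate early genes, which neurons switch on after activity, were lower in 9 of 13 without knockout replicate 8 (median -0.06), 5 of them at an unadjusted p below 0.05 against 5.84% of all genes. Fos was at 0.994, 1.01, 1.06 and 1.19 RPKM in wild type and at 0.83, 0.458, 0.648 and 0.815 RPKM in knockout. Dusp1, a phosphatase gene induced with Fos, was at 9.02 to 9.47 RPKM and at 5.69 to 8.46 RPKM. Neither overlapped between groups, and both had a limma adjusted p of 0.69. Codes 7_1 and 7_6 had 0.853 and 0.652 RPKM of Fos, and both were nearer knockout for 9 of the 13 genes, against 31.3% of all genes.

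Ependymal and cilia genes were higher in 14 of 16 without knockout replicate 8 (median 0.21), against 46% of all genes. With it 13 of 16 were higher (median 0.22), and 0 were called. In striatum 13 of 14 were higher (median 0.18). Codes 7_1 and 7_6 were both nearer knockout for 7 of the 16, and only code 7_6 was for 8, against 31.3% and 22.6% of all genes. Foxj1, the transcription factor that switches on motile cilia, was at 11.9, 10.9, 14.4 and 13.5 RPKM in wild type and at 14, 23.9, 22 and 18.4 RPKM in knockout. The groups overlapped, since knockout replicate 7 lay below wild type replicate 3. Dynlrb2, a dynein light chain gene, was at 1.69 to 2.74 RPKM and at 3.18 to 6.77 RPKM, and Spag8, a sperm and cilium gene, at 1.4 to 1.73 RPKM and at 1.91 to 2.27 RPKM. Neither overlapped, and both had a limma adjusted p of 0.69.

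Meningeal fibroblast genes were higher in 16 of 16 over all 8 libraries (median 0.31) and in 14 of 16 without knockout replicate 8 (median 0.14), with 0 called. In striatum 0 of the 8 tested were higher in knockout and 8 lower (median -0.47). Striatal wild type libraries differed among themselves, however. Replicate 4 had 6.37 RPKM of Crabp2, against 2.66 to 3 RPKM in replicates 1 to 3. For Mgp, replicates 2 and 4 had 1.49 and 1.08 RPKM, against 0.369 and 0.363 RPKM in replicates 1 and 3. How far the striatal direction rests on such libraries was not tested. For 12 of the 16 in hippocampus, code 7_1 was nearer wild type and code 7_6 nearer knockout, against 22.6% of all genes. Mgp, a matrix protein gene, was at 0.28, 1.89, 0.643 and 1.44 RPKM in wild type and at 2.9, 8.85, 2.33 and 2.14 RPKM in knockout. Crabp2, a retinoic acid binding protein gene, was at 1.19 to 2.52 RPKM and at 2.87, 9.34, 3.06 and 4.26 RPKM. Knockout replicate 8 was highest for both, and wild type replicate 1 had the lowest mean level of the list, 2.01 against 2.44 to 3.43 in the other 7 libraries. Choroid plexus genes had a median of 0.03 without knockout replicate 8 and of -0.04 with it. Kcnj13, a potassium channel gene 17.7 Mb from Ikzf2, was at 0.373 to 0.586 RPKM in wild type and 0.69 to 0.957 RPKM in knockout.

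Microglia and brain macrophage genes were higher in 14 of 14 without knockout replicate 8 (median 0.12), against 46% of all genes. Of these, 1 had an unadjusted p below 0.05 and 0 were called. With that library 13 of 14 were higher (median 0.23), and in striatum 6 of 11 (median 0.001). Codes 7_1 and 7_6 were both nearer wild type for 8 of the 14, against 28.1% of all genes, and both nearer knockout for 0. Oligodendrocyte genes were higher in 10 of 12 without knockout replicate 8 (median 0.12) and in 8 of 12 with it (median 0.06). Genes of the mitochondrial genome were higher in 12 of 13 without knockout replicate 8 (median 0.15) and in 11 of 13 with it (median 0.195). Among them mt-Nd3, a complex I subunit, was at 998, 939, 994 and 1192 RPKM in wild type. In knockout it was at 1412, 2271, 1250 and 1363 RPKM. That separation held in every library, while for mt-Nd4 wild type replicate 4 overlapped knockout (2301 to 2902 RPKM against 2811 to 3410 RPKM). Codes 7_1 and 7_6 were both nearer knockout for 10 of the 13 mitochondrial genes, against 31.3% of all genes. In striatum 13 of 13 were higher in knockout (median 0.18). Of 14 NuRD complex genes, partners of Ikaros proteins, 7 were higher and 7 lower without knockout replicate 8 (median -0.01). With it 6 were higher and 8 lower (median -0.03). Notch pathway genes had a median of -0.06 without knockout replicate 8 and of -0.12 with it. For Wnt pathway genes these medians were -0.05 and -0.17.

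**Figure D5:**
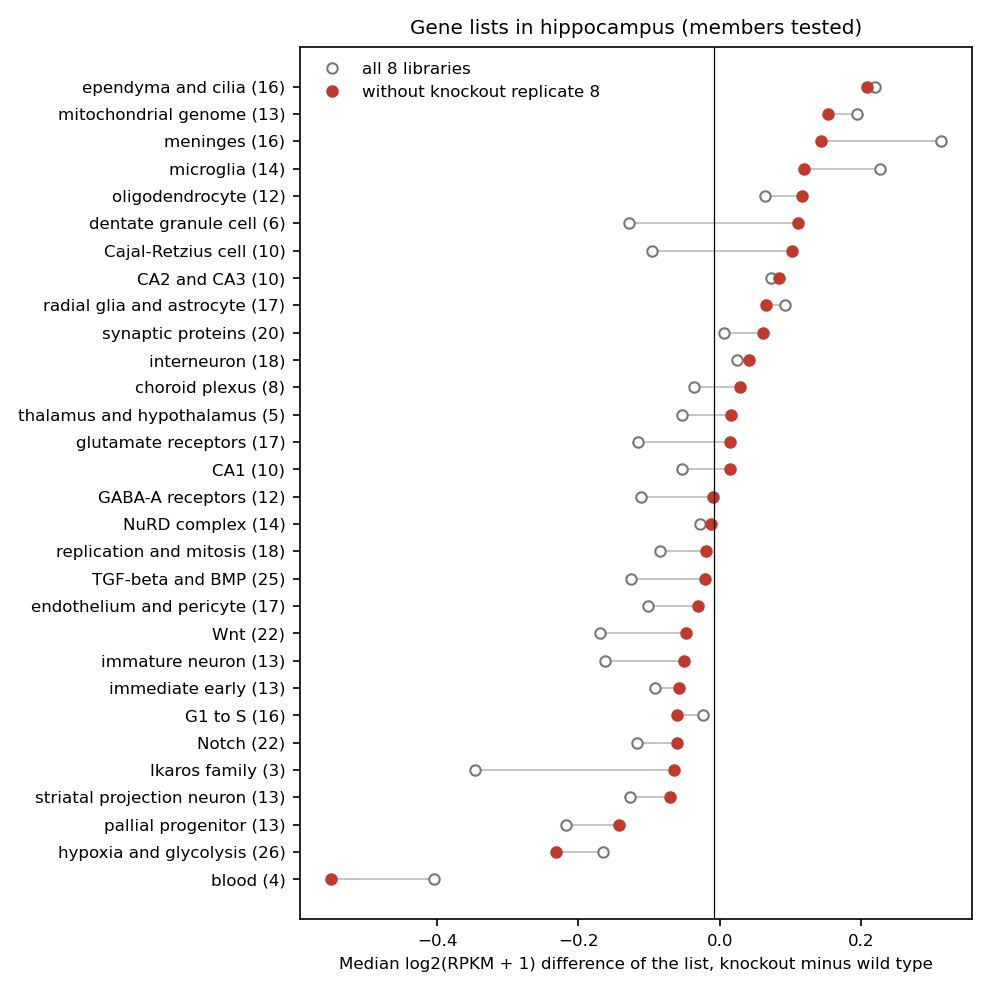
Median difference of knockout from wild type hippocampus on the log2(RPKM + 1) scale for 30 gene lists, with the number of members tested in brackets. Filled points leave out knockout replicate 8, open points use all 8 libraries, and the vertical line is the median of all genes without knockout replicate 8. Among filled points, hypoxia and glycolysis genes and blood genes lie lowest, ependymal, mitochondrial and meningeal genes highest. Open and filled points differ in sign for 6 lists, dentate and Cajal-Retzius markers among them.

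Whether the difference between genotypes depended on tissue was asked in 1 fit over the 16 libraries of these codes. The interaction called 0 of 15540 genes (0%), with 552 (3.55%) at an unadjusted p below 0.05. Kcnj13 had the smallest p, with a difference of 0.49 ± 0.10 (SE) on the log2 scale between tissues. Its striatal levels were 0.273 to 0.383 RPKM in wild type and 0.09 to 0.205 RPKM in knockout. These lie below the 0.5 RPKM required for testing in striatum alone. Hippocampal codes 7_1 and 7_6 had 0.248 and 1.85 RPKM of Kcnj13, outside the range of both groups. Crabp2 was higher in hippocampal knockout libraries by 0.95 and differed by -0.66 in striatal ones on the log2 scale, without overlap in either tissue. Striatal wild type replicate 4 had 6.37 RPKM of Crabp2, against 2.66 to 3 RPKM in striatal wild type replicates 1 to 3. Kcnt1, a sodium-activated potassium channel gene, was at 2.23 to 2.8 RPKM in wild type hippocampus and 2.65 to 3.77 RPKM in knockout, but at 9.21 to 11.1 RPKM and 6.27 to 8.68 RPKM in striatum. Pth2r, given above, and the microRNA gene Mir665 completed the 5 with the smallest p, and all had a limma adjusted p of 0.781. Slc2a1, Kdm3a and Gabra2 differed between tissues by -0.08, -0.11 and 0.06 on the log2 scale, with SEs of 0.14, 0.17 and 0.21.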

How the data were processed

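Per the labels' protocols, a TruSeq kit that keeps strand was used and single reads of 75 bp were generated. The submitters' processing notes name cutadapt 1.3, BWA 0.7.4, SAMtools, HTSeq, featureCounts, DESeq2 and the build mm10, without roles or order. The authors deposited 1 table of RPKM for 27179 genes and 20 libraries, in which values of 1 or more had lost the decimal mark (51.2% of hippocampal values). Each mark was placed so that a single gene length turned every value of the gene into whole reads (tolerance 0.001), choosing the place closest to its level in other libraries of the tissue after allowing for each library's length bias. Restored values therefore lean toward the other libraries of the tissue. An unsure mark was set to missing where a gene had 1 in the fit, and genes with 2 or more were left out (586 genes had any in the 8 libraries), a rule set after the data were seen. All deposited value columns belonged to mapped libraries, and the authors' own comparison tables, which had lost marks in the same way, were not used.

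limma 3.58.1 in R 4.3.3 (trend and robust options) compared log2(RPKM + 1), pseudocount 1, between 4 knockout and 4 wild type libraries without covariates. Genes that reached 0.5 RPKM in 4 or more libraries were tested, with Benjamini-Hochberg adjustment over all of them. Fold changes are differences of group means on this scale and understate changes of low genes. Arithmetic was tested on simulated data. The members, the 30 gene lists and the rules were chosen with earlier results of these data known. Named genes were the Ikaros family, the 10 genes with the smallest p in each direction whose sign held without each library, up to 4 genes per list by p with the highest expressed cell type markers, and the 5 with the smallest interaction p. Genes called with library weights, chromosome 1 neighbours and list members beyond these were named after their values were seen. Alternatives were another pseudocount, filters, median scaling, a gene length correction, library weights, voom on recovered reads, leaving out each library, and both ways of adding the code 7 libraries. The smallest chi-square per degree of freedom between 2 libraries of a group was 12.5 over 12 pairs, so none were merged. Entrez identifiers were matched to RefSeq (GRCm38.p6) for symbols and coordinates, with GENCODE for symbols missing there, and 25293 genes had a symbol.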

Additional observations from a re-analysis of the deposited data

Results flagged for a closer look

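Of 188 groups of 4 libraries examined for a value far from the other 3, 22 were flagged, where chance flags about 1 in 20, and 18 of the 22 were knockout replicate 8. That library, which differs by gene length, was far above its group for Dnpep (25.8 RPKM), Nbl1 (23.8), Slc13a4 (3.52), Mgp (8.85), Klf2 (6.83), Clec3b (4.83), Eno1 (179), Gapdh (101), Aldoa (142) and mt-Nd3 (2271), and far below it for Asb1 (5.49), Pign (1.65), Narf (18.7) and Ikzf5 (4.34). Its mean level on the log2(RPKM + 1) scale was far below its group for the Ikaros family (1.5), GABA-A receptor genes (2.91) and synaptic protein genes (4.77), and above it for genes of the mitochondrial genome (11.67).

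In wild type, replicate 3 was low for D2hgdh (4.21 RPKM), replicate 2 high for Pfkp (17.6 RPKM), replicate 1 high for Rnu1b6 (0.404 RPKM), and replicate 1 low for the mean of endothelial and pericyte genes (2.64). Crabp2 moved in opposite directions in the tissues, with every knockout library above wild type in hippocampus and below it in striatum. The difference between tissues was 1.61 on the log2 scale, and in the interaction fit it had a limma adjusted p of 0.781.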

How the results depend on the processing

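The count of called genes was 0 over all 8 libraries and stayed 0 without a filter, with a filter of RPKM 2, with median scaling, with a gene length correction, with voom, with either way of adding the code 7 libraries and with either treatment of unsure marks. It was 1 with a pseudocount of 0.1, the low gene Scarna9, and 22 with library weights. Scarna9 passed the filter only through its wild type libraries, so that call is not a result. Leaving out each library in turn gave between 0 and 1 calls, the 1 being Gabra2 without knockout replicate 8. In striatum the range was 0 to 2 calls, with 2 without wild type replicate 3. For Ikzf2 hippocampus, a description, the log2 difference of -0.65 became -1.24 with a pseudocount of 0.1, and was -0.71 to -0.58 without each library in turn. The number of genes at an unadjusted p below 0.05 was 548 over all 8 libraries, 823 with the length correction, 1388 without knockout replicate 8 and between 299 and 750 without any other library. Of the single genes printed, 6 changed sign under some alternative, and none of those differences was called. Without each library in turn the log2 difference ranged from -0.218 to 0.167 for Eno1, -0.095 to 0.244 for Gapdh, -0.139 to 0.164 for Aldoa and -0.163 to 0.099 for Hk2, and each of these 4 changed sign without knockout replicate 8. Library weights gave -0.178, -0.061, -0.11 and 0.121 for the same genes. The gene length correction gave -0.011 for Eno1, -0.001 for Aldoa, 0.08 for Hk2 and 0.004 for Hk1. Hk2 was at 0.033 without wild type replicate 1, and Kcnj13 at -0.006 with the code 7 libraries added by their striatal labels. List medians moved beyond the replicate spread for 2 lists, both under the gene length correction. Inside hippocampus the groups share no replicate number, so no block could be fitted there. For the interaction, same-numbered libraries of both tissues correlated between -0.229 and 0.239, with 4 of 8 best matched to their own number. The lowest was of replicate 8, whose hippocampal library has the length bias, so these values do not decide whether the numbers are pairs. The main interaction fit took the libraries as independent. With the replicate block the interaction again called 0 genes, with 653 at an unadjusted p below 0.05. Depth limits low genes such as Ikzf1, Scarna9 and Rnu1b6.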

Other observations

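The genes called with library weights differed in where codes 7_1 and 7_6 lay. Of the 21 other than Ikzf2, both codes were nearer wild type for 7, both nearer knockout for 4, and code 7_1 nearer knockout with code 7_6 nearer wild type, as for Ikzf2, for 8 on the log2(RPKM + 1) scale. In RPKM, a scale tried after the data were seen, the counts were 8, 4 and 7, since Clec3b lay close to midway. The remaining 2, Smad7 and Nedd9, had the opposite order. Over all genes tested, on the log2 scale, these shares were 28.1%, 31.3%, 18% and 22.6%. The 21 include Scarna9, Rnu1b6 and the feature without a symbol, which passed the filter through a single group.

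Wdfy1, on chromosome 1 and 10.01 Mb from Ikzf2, was outside the tests because 3 of its marks in the 8 libraries were unsure. Its restored levels were 6.32, 7.11, 6.76 and 15 RPKM in wild type, 21.5, 15.3, 23.4 and 23 RPKM in knockout, and 21.4 and 7.99 RPKM in codes 7_1 and 7_6.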
